A study of Mus musculus with 7 samples.

Results

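Mitosis is driven by a set of genes that most dividing cells switch on together late in the cell cycle. The set examined here holds 55 such genes, the mitotic kinases and cyclins, the kinetochore and its checkpoint, the spindle motors, condensin and the factors that end mitosis, chosen by gene name. Of these, 54 had a probe set paired with 1 gene, among 18193 genes measured in all, and Ccnb1 (cyclin B1) was not analysed here. They were read on Affymetrix arrays hybridised with biotin-labelled cRNA from mouse myoblasts, which divide before they fuse to form skeletal muscle. The 4 Hmga2 KO samples came from mice without Hmga2 (genotype HMGA2 -/-), male in replicates 1 and 3 and female in replicates 2 and 4. They were compared with 3 samples from wild type mice, all female. Both groups were of the C57BL/6 background and untreated, and the sources used here do not give their age, their passage in culture, any pooling of animals or the part of the gene deleted, and so not whether its probe set lies in that part. Hmga2 encodes a chromatin protein of precursor cells, and the comparison asks how transcript levels differ without it.

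In a growing culture, Cdk1 with cyclins A and B starts mitosis, and Polo-like and Aurora kinases carry it forward. Kinetochores tie chromosomes to the spindle, and the spindle checkpoint holds back the anaphase-promoting complex until every chromosome is attached. The genes are transcribed in G2 under Foxm1 and the B-Myb protein encoded by Mybl2, and they are silenced when a myoblast leaves the cycle to fuse. In a bulk culture, fewer cells in G2 and mitosis and less RNA in each such cell cannot be told apart.

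All values are probe set intensities as deposited, with each array at a median of 150, and a gene's value is that of its brightest probe set. Fold changes are differences of log2(intensity + 1), Hmga2 KO minus wild type, tested with limma and adjusted over all genes with the Benjamini-Hochberg method. Hmga2 itself averaged 95.8 ± 7.70 in Hmga2 KO (SD, n = 4) and 11599 ± 1443 in wild type (SD, n = 3) (change -6.90, adjusted p = 1.0e-08, limma), and Y-linked signal matched the sex label in 7 of 7 samples. The 8 myoblast markers were above background in every sample, with Myod1 between 14293 and 15765, but not all were even. Of them 5 had a change below 0 and 3 above, from -0.60 for Itga7 (859 to 2291) to 0.64 for Myf5 (1408 to 4885). By limma 0 passed, and 1 (Chrna1, -0.29) was lower at an unadjusted p under 0.05 (12.5%, against 10.3% of all genes). The 54 mitotic genes lay between 174 and 10514, above the 33.9 to 58.2 that probe sets of Y-linked genes gave in the 5 female samples, so none was at background. Precision is limited by the few arrays, described in the labels as biological replicates.

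No mitotic gene passed the test between the genotypes, although most had a somewhat lower mean in Hmga2 KO. Of 54 genes, 52 had a change below 0, with a median of -0.22 on the log2 scale and a range of -0.42 to 0.03. Among all genes 67.6% had a change below 0 and the median was -0.07, so the set's median differed from it by -0.15. By limma 0 of the 54 had an adjusted p under 0.05, where 0.0275% of all genes did, and the lowest adjusted p was 0.297. At an unadjusted p under 0.05, 12 were lower (22.2%, against 10.3% of all genes) and 0 were higher (2.99% of all genes). In 6 genes every Hmga2 KO sample lay below every wild type sample, which is 11.1% of the set against 9.29% of all genes, and so near the background, and in 0 it lay above them (2.37% of all genes).

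**Figure D1:**
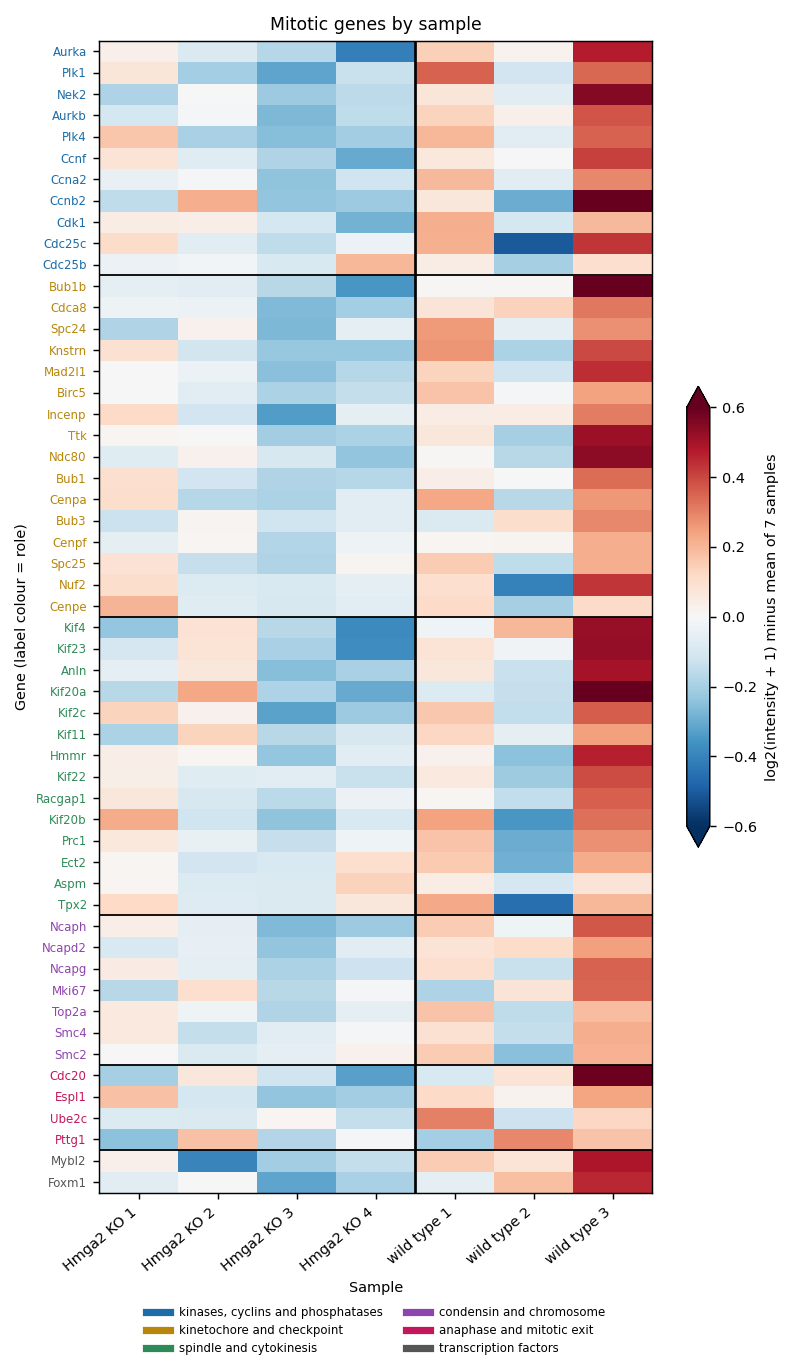
Level of 54 mitotic genes in each sample, as log2(intensity + 1) minus the gene's mean over the 7 samples (colour), with Hmga2 KO samples left of wild type samples and genes grouped by role (label colour). Wild type replicate 3 was the highest of the 7 samples for 46 genes, and Hmga2 KO replicate 3 the lowest for 25.

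The genes varied together from sample to sample, and 1 sample stood out. Wild type replicate 3 was the highest of the 7 samples for 46 of the 54 genes (29.5% of all genes), and it lay above every Hmga2 KO sample for 50 (44.5% of all genes). Wild type replicate 1 lay above every Hmga2 KO sample for 34 genes (24.9% of all genes). Wild type replicate 2 did so for 11 (36.4% of all genes), was within the Hmga2 KO range for 30 and lay below every Hmga2 KO sample for 13, and it was the lowest wild type sample for 44 genes. Hmga2 KO replicate 3 was the lowest of the 7 samples for 25 genes (20.9% of all genes). Averaged over the 54 genes, the log2 level relative to the mean of the 7 samples was -0.0040, -0.04, -0.18 and -0.13 in Hmga2 KO replicates 1 to 4, against 0.10, -0.09 and 0.35 in wild type replicates 1 to 3. The groups therefore overlapped, with wild type replicate 2 between Hmga2 KO replicates 2 and 4. The arrays also differed over all genes. The set's median level less the median of all genes was 0.05, -0.07, -0.11 and -0.10 in Hmga2 KO replicates 1 to 4. In wild type replicates 1 to 3 it was 0.10, -0.15 and 0.25, so on this scale wild type replicate 2 was the lowest of the 7. The spread was wider in wild type for 51 of 54 genes, with a median SD of 0.13 in Hmga2 KO and 0.25 in wild type (log2). The change was larger than the wild type SD for 22 genes. These counts, and that of the lowest wild type sample, were not made over all genes, so they are not shown to be particular to the set.

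How far the set lay below other genes depended on single wild type samples. Without wild type replicate 3 the median change was -0.11 against -0.05 for all genes, 40 of 54 genes were below 0 (61.4% of all genes), and 0 had an unadjusted p under 0.05 (5.5% of all genes were lower at that p). Without wild type replicate 2 the median was -0.32 and all 54 genes were below 0 (69.0% of all genes). Of them 30 were lower at an unadjusted p under 0.05 (8.4% of all genes). Leaving out Hmga2 KO replicate 3 left 3 such genes (6.61% of all genes), with 50 below 0 (64.7% of all genes), and leaving out Hmga2 KO replicate 4 left 4 (6.56% of all genes), with 53 below 0 (67.7% of all genes). Without wild type replicate 1 there were 10 such genes (13.7% of all genes). Without Hmga2 KO replicates 1 and 2 in turn there were 15 (8.55%) and 11 (13.8%), against 12 in all 7 samples. The scaling of the arrays mattered as well. With each array centred on its median gene the median of the set was -0.11 and that of all genes 0.04. Below 0 were 44 mitotic genes (40.2% of all genes). At an unadjusted p under 0.05, 0 were lower (3.44% of all genes) and 0 higher (7.31% of all genes). With quantile normalization these medians were -0.12 and -0.01, with 48 below 0 (52.5% of all genes) and 2 lower at that p (5.08% of all genes). With array weights, which count less consistent arrays less, 53 were below 0 (69.1% of all genes). At an unadjusted p under 0.05, 22 were lower (11.8% of all genes). The distance between the set and all genes was -0.15 as deposited and -0.11 after quantile normalization. Centring shifts the change of every gene by the same amount, so it cannot move this distance.

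Promoters of this module are known for a shared pair of short elements, and they are shown here for the genes with the smallest and the largest p. One element is the cell cycle genes homology region (CHR), searched as TTTGAA or TTCGAA, and the other is the CCAAT box, searched as CCAAT, both on either strand. In dividing cells of mouse and human the CHR is bound by the MuvB complex, with repressive partners in resting cells and with B-Myb and Foxm1 in G2, and the CCAAT box is bound by NF-Y. RefSeq windows of 250 bases before to 50 bases after a gene's start (build GRCm38.p6, first window listed for a gene) were found for 45 of the 54 genes. A CHR was present in 35 of these 45 windows (77.8%), against 19.4% of 27025 windows of all genes, and a CCAAT box in 33 (73.3%), against 37.9%. Both were present in 31 (68.9%, against 7.70% of all windows). Capitals mark CHR and CCAAT matches in the windows of Mybl2 (chr2:163054385-163054684, plus strand), Cdca8 (chr4:124936868-124937167, minus strand), Ncapd2 (chr6:125191537-125191836, minus strand), Kif4 (chrX:100625815-100626114, plus strand), Cenpe (chr3:135212313-135212612, plus strand) and Aspm (chr1:139454523-139454822, plus strand).
Mybl2: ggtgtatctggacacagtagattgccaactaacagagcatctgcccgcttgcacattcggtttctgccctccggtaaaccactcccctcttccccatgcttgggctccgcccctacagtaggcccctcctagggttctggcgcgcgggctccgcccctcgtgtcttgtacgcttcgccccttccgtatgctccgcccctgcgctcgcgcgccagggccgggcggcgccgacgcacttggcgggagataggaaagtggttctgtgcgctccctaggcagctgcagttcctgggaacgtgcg
Cdca8: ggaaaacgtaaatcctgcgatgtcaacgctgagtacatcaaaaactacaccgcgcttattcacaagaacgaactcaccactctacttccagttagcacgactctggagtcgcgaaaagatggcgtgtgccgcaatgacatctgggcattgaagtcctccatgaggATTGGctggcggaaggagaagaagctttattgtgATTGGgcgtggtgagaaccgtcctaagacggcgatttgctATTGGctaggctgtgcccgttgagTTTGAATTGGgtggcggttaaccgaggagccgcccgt
Ncapd2: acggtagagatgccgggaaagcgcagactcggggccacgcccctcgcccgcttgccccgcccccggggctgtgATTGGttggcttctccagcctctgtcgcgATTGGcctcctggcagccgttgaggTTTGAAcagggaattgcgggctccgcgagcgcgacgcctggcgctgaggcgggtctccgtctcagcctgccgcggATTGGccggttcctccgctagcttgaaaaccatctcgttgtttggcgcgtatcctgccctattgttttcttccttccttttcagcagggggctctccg
Kif4: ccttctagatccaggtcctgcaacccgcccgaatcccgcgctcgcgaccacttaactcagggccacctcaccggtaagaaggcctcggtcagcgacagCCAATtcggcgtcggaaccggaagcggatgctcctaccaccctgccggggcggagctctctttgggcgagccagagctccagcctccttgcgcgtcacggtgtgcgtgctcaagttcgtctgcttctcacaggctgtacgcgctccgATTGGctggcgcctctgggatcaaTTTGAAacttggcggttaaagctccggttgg
Cenpe: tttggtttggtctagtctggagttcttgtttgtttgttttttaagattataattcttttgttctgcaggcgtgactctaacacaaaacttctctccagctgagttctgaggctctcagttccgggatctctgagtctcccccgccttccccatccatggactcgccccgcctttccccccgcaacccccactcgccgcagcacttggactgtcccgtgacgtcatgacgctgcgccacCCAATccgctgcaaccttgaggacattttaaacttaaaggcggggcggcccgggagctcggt
Aspm: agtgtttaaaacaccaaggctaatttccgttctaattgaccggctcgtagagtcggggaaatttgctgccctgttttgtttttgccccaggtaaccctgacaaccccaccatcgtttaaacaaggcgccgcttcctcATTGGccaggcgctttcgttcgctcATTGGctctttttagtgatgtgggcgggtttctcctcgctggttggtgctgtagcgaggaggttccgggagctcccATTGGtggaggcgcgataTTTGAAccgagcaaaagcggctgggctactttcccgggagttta
The first 4 are the windows of the genes with the smallest p among those with a window, and the last 2 are those of the largest. Cdca8 and Kif4 hold a TTTGAA just after the start, beginning at base 14 and base 20 of the transcript, with a CCAAT box read on the opposite strand (ATTGG as printed) from 11 and 5 bases before the start, and in Cdca8 the TTTGAA overlaps a further CCAAT box by its last base. Ncapd2 holds its TTTGAA 123 bases before the start, between CCAAT boxes. Aspm, whose change was -0.01, holds the same pair, with TTTGAA from base 7 of the transcript and CCAAT boxes before the start. Neither element was found in the window of Mybl2, and Cenpe held a CCAAT box alone. Within the set, the median change was -0.19 for the 35 genes with a CHR and -0.27 for the 10 without. Across the 14452 measured genes with a window, the median change was -0.08 with a CHR and -0.07 without. A CHR was present in 15.0% of these windows. Of the other G2/M genes and the DNA replication genes described below, 43.9% and 18.2% of those with a window held one. The part of these elements in the shared variation across samples was not tested.

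Among the regulators that switch the module on, both had changes below 0 (67.6% of all genes). Mybl2, which encodes B-Myb, had intensities of 233, 174, 198 and 207 in Hmga2 KO replicates 1 to 4, against 254, 242 and 320.3 in wild type replicates 1 to 3. Its groups did not overlap, and it had the smallest p of the set (change -0.42, SE 0.135, unadjusted p = 0.0129, adjusted p = 0.297, limma). Its other probe set differed by -0.59. Foxm1, a forkhead factor of G2 genes, had 319.8, 335, 268 and 292 in Hmga2 KO and 323, 379.7 and 458 in wild type, with Hmga2 KO replicate 2 above wild type replicate 1. The change was -0.34 (SE 0.136, adjusted p = 0.342, limma), and its 4 probe sets differed by -0.45 to -0.01.

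Of 11 kinases, cyclins and phosphatases, 10 had a change below 0 (67.6% of all genes), with a median of -0.27. At an unadjusted p under 0.05, 3 were lower (27.3%, against 10.3% of all genes). Aurkb, the kinase of the chromosomal passenger complex, had 1268, 1358, 1134 and 1228 in Hmga2 KO and 1497, 1397 and 1773 in wild type. Its groups did not overlap, but the gap between Hmga2 KO replicate 2 and wild type replicate 2 was small beside the spread of either group (change -0.31, SE 0.112, adjusted p = 0.313, limma). Aurka, the kinase of the spindle poles, had 1242, 1143, 1080.1 and 914 in Hmga2 KO, against 1341, 1234 and 1685 in wild type (change -0.37, adjusted p = 0.332). Here Hmga2 KO replicate 1 lay just above wild type replicate 2. The other, dimmer probe set of Aurka went the other way, at 0.23, and the mean of both gave -0.07 (adjusted p = 0.833, limma). Plk1, the Polo-like kinase of mitotic entry and spindle assembly, had 1119.7, 924, 854 and 971 in Hmga2 KO and 1363, 982 and 1352 in wild type (change -0.34, adjusted p = 0.364). Wild type replicate 2 lay inside the Hmga2 KO range, and the other two wild type samples lay above it.

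Cdk1 and its cyclins had smaller changes, none past the test. Cdk1, the mitotic cyclin-dependent kinase, averaged 7447 ± 770.0 in Hmga2 KO (SD, n = 4) and 8431 ± 1006 in wild type (SD, n = 3), with a change of -0.18 and a 95% interval of -0.45 to 0.10. Its partners Ccna2 (cyclin A2, 5213 ± 364 in Hmga2 KO and 6182 ± 773 in wild type) and Ccnb2 (cyclin B2, 1633 ± 256 in Hmga2 KO and 1965 ± 644 in wild type) had changes of -0.24 and -0.23. Without wild type replicate 3 the change of Ccnb2 was 0.02, so its direction rested on that sample. Cdc25b, a phosphatase that activates Cdk1, had a change of 0.03 (95% interval -0.22 to 0.29), and its relative Cdc25c one of -0.08 (-0.53 to 0.37), which was 0.05 with quantile normalization and 0.03 with centring. Nek2 (centrosome separation), Ccnf (cyclin F) and Plk4 (centriole duplication) had changes of -0.33, -0.27 and -0.29 with adjusted p of 0.382, 0.409 and 0.411 by limma.

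**Figure D2:**
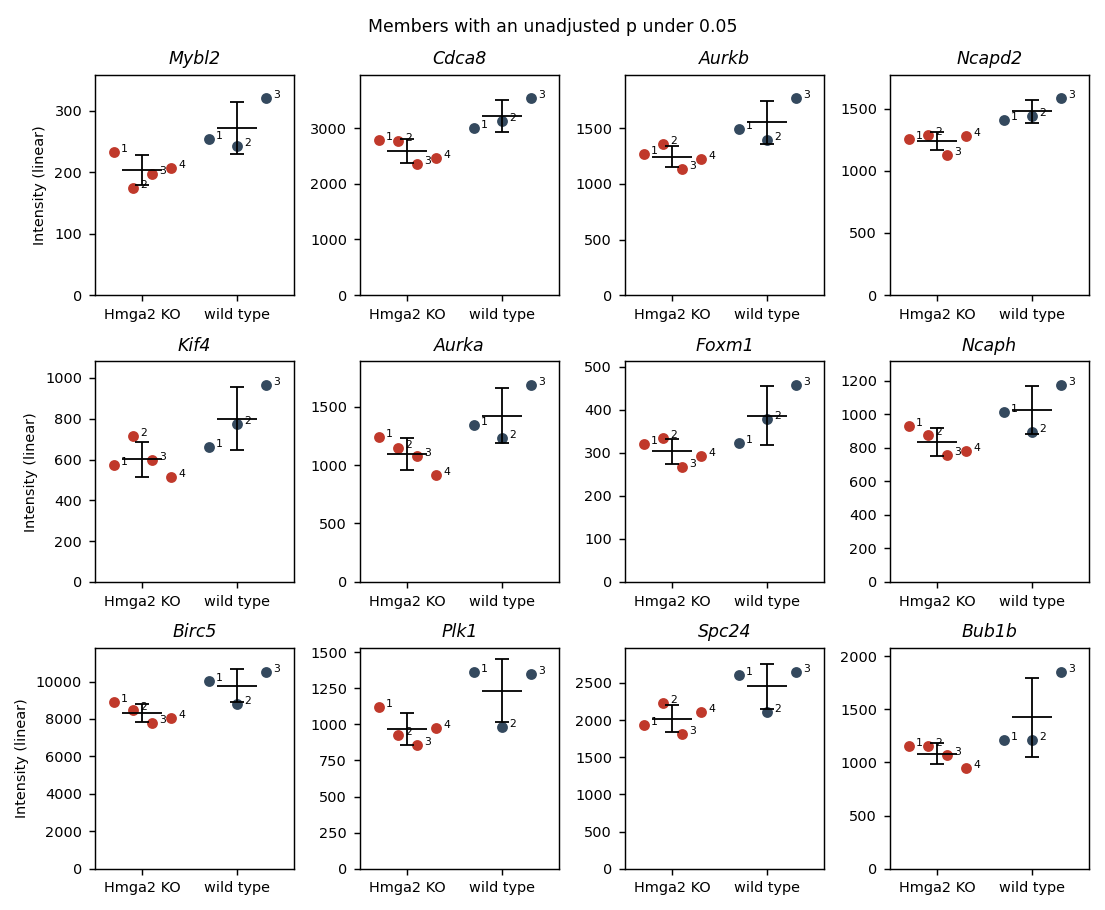
Intensity (linear scale) of the 12 mitotic genes with an unadjusted p under 0.05, in Hmga2 KO (red, 4 samples) and wild type (dark, 3 samples); points carry the replicate number, and bars give the mean and SD. Wild type replicate 3 is the highest point for 11 of the genes, and the groups do not overlap for Mybl2, Cdca8, Aurkb, Ncapd2 and Bub1b.

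All 16 kinetochore and checkpoint genes had a change below 0 (67.6% of all genes), with a median of -0.22. Of these, 4 had an unadjusted p under 0.05 (25%, against 10.3% of all genes that were lower at that p), and in 3 the groups did not overlap (18.8%, against 9.29% of all genes). Cdca8, which encodes the passenger complex subunit borealin, had 2785, 2778, 2364 and 2468 in Hmga2 KO, against 3003, 3124 and 3544 in wild type. Every wild type sample lay above every Hmga2 KO sample, by a small gap (change -0.31, SE 0.105, adjusted p = 0.305, limma). Its 3 probe sets differed by -0.44 to -0.31. Birc5 (survivin), of the same complex, averaged 8311 ± 476 in Hmga2 KO (SD, n = 4) and 9783 ± 872 in wild type (SD, n = 3), a change of -0.23, with Hmga2 KO replicate 1 just above wild type replicate 2. Incenp, the scaffold of the complex, had a change of -0.23 (adjusted p = 0.452), and its 5 probe sets disagreed, at -0.36 to 0.36.

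Bub1b, the checkpoint protein BubR1, had 1156, 1154, 1073 and 946 in Hmga2 KO and 1211, 1211 and 1852 in wild type. The 2 lower wild type samples stood just above the Hmga2 KO samples and wild type replicate 3 far above (change -0.37, adjusted p = 0.374), and without that sample the change was -0.17. The other checkpoint genes Mad2l1, Bub1, Ttk (the kinase Mps1) and Bub3 had changes of -0.27, -0.22, -0.22 and -0.18. Bub3 rested on its brightest probe set, since 3 of its 5 probe sets lay above 0. In the Ndc80 complex, which holds the microtubule, Spc24 had 1928, 2229.8, 1814 and 2107 in Hmga2 KO, against 2612, 2105 and 2649 in wild type (change -0.28, adjusted p = 0.365). Wild type replicate 2 again lay inside the Hmga2 KO range. Its partners Ndc80, Spc25 and Nuf2 had -0.22, -0.13 and -0.07, and the last was 0.12 without wild type replicate 3. At the centromere, Cenpf had 915, 958, 841 and 930.4 in Hmga2 KO and 959, 961 and 1106 in wild type (change -0.14, adjusted p = 0.527), groups that only just did not overlap. Knstrn (a spindle and kinetochore adaptor), Cenpa (the centromeric histone H3) and the motor Cenpe had changes of -0.27, -0.19 and -0.02, and Cenpe was 0.11 with quantile normalization. The other probe set of Cenpe, with a mean intensity of 721 against 964, differed by -0.24.

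**Figure D3:**
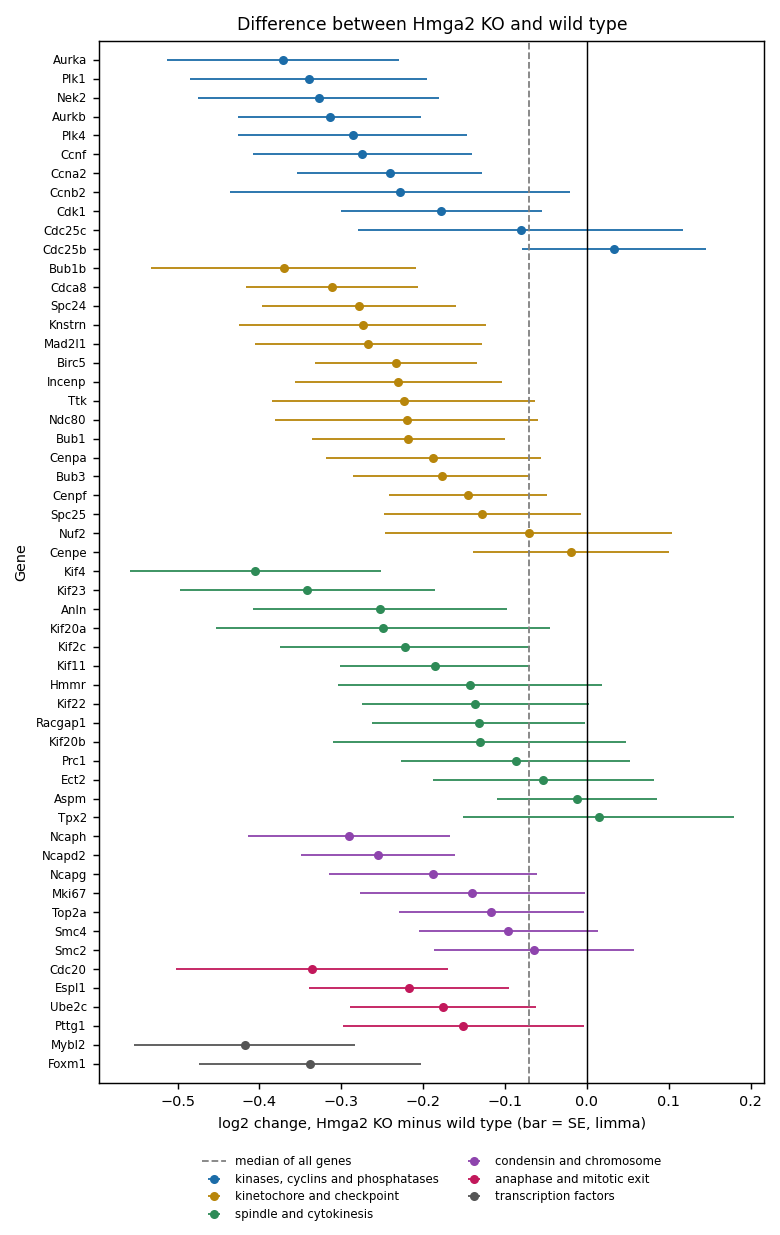
Log2 change of each mitotic gene, Hmga2 KO minus wild type (horizontal axis, bars give the SE from limma), by role (colour), with 0 as a solid line and the median of all genes, -0.07, as a dashed line. Of 54 genes 52 lie left of 0 and 47 left of the dashed line, and changes run from -0.42 for Mybl2 to 0.03 for Cdc25b.

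Spindle and cytokinesis genes had a median change of -0.14 over 14 genes, 13 of them below 0 (67.6% of all genes). Kif4, the chromosome-bound kinesin of the central spindle, had 572, 714, 599.9 and 516 in Hmga2 KO and 660.5, 772 and 965 in wild type (change -0.41, SE 0.153, adjusted p = 0.331, limma). It was the 1 gene of the 14 lower at an unadjusted p under 0.05 (7.14%, against 10.3% of all genes). Hmga2 KO replicate 2 lay above wild type replicate 1. Kif23, a subunit of the centralspindlin complex of cytokinesis, averaged 1401 ± 183 in Hmga2 KO (SD, n = 4) and 1789 ± 378 in wild type (SD, n = 3), a change of -0.34. Racgap1, its partner in that complex, had -0.13, and was 0.0099 without wild type replicate 3. Anln (anillin, of the cleavage furrow), Kif20a, Kif2c and Kif11 (Eg5, which pushes the spindle poles apart) had -0.25, -0.25, -0.22 and -0.19. Hmmr, Kif22 and Kif20b had -0.14, -0.14 and -0.13, and the cytokinesis genes Prc1 and Ect2 had -0.09 and -0.05.

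Tpx2 and Aspm, which organise microtubules at the spindle and its poles, had changes close to 0 on their brightest probe sets. Tpx2 had 6141, 5345, 5326 and 5917 in Hmga2 KO, against 6617, 4132 and 6477 in wild type, so that the wild type samples lay on both sides of the Hmga2 KO samples. Its change was 0.01 with a 95% interval of -0.36 to 0.39, and it was -0.21 without wild type replicate 2. The other probe sets of Tpx2 differed by -0.21, -0.0023 and -0.01, in order of brightness. Aspm had 2021, 1896, 1889 and 2205 in Hmga2 KO and 2069.6, 1870.4 and 2116 in wild type, with a change of -0.01 and an interval of -0.23 to 0.21. In 7 of these 14 genes wild type replicate 2 was the lowest of the 7 samples (15.5% of all genes).

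Condensin compacts mitotic chromosomes, and its 5 genes in the set had changes below 0 (67.6% of all genes). Ncapd2 had 1254, 1292, 1131 and 1279.6 in Hmga2 KO, against 1412, 1439 and 1586 in wild type, and its groups did not overlap (change -0.26, SE 0.0938, adjusted p = 0.320, limma). Its other, dimmer probe set went the other way, at 0.27. Ncaph had 932, 875, 756 and 779.6 in Hmga2 KO and 1010.5, 891 and 1174 in wild type (change -0.29, adjusted p = 0.361), with Hmga2 KO replicate 1 above wild type replicate 2. Ncapg had -0.19, whereas the core ATPases Smc4 and Smc2 had -0.10 and -0.06, and both were above 0 after centring (0.02 and 0.05). Top2a, the topoisomerase that untangles sister chromosomes, averaged 6470.3 ± 438 in Hmga2 KO (SD, n = 4) and 7043 ± 896 in wild type (SD, n = 3), a change of -0.12. Mki67 (Ki-67, the usual marker of cycling cells) had 2618, 3152, 2623 and 2922 in Hmga2 KO, against 2586, 3098 and 3749 in wild type. Wild type replicate 3 lay above every Hmga2 KO sample and wild type replicate 1 below every one, and without wild type replicate 3 the change of -0.14 (95% interval -0.45 to 0.17) was -0.0050.

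The genes of anaphase and mitotic exit had changes below 0 in 4 of 4 cases (67.6% of all genes). By limma none had an unadjusted p under 0.05 (10.3% of all genes were lower at that p). Cdc20, the activator of the anaphase-promoting complex, had 2209, 2654, 2332 and 2024 in Hmga2 KO, against 2379, 2679.8 and 3804 in wild type (change -0.34, SE 0.166, adjusted p = 0.415, limma). All 3 of its probe sets lay below 0, yet without wild type replicate 3 the change was -0.14. Espl1 (separase), Ube2c (the ubiquitin-conjugating enzyme of the complex) and Pttg1 (securin) had changes of -0.22, -0.18 and -0.15. Pttg1 was the 1 gene of the set in which wild type replicate 2 was the highest sample.

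Because the wild type samples were all female, the 2 female Hmga2 KO samples were also compared with them alone, in a fit with 1 group per genotype and sex. The median change of the 54 genes was then -0.20 against -0.05 for all genes, and 51 were below 0 (62.8% of all genes). With fewer samples behind it, this comparison left Aurka (-0.46, unadjusted p = 0.0251, adjusted p = 0.651) and Mybl2 (-0.51, unadjusted p = 0.0129, adjusted p = 0.584) at an unadjusted p under 0.05 (5.13% of all genes were lower at that p). No gene of the set passed between male and female Hmga2 KO samples. Male minus female, the median change was 0.0014, with 27 genes below 0 (60.6% of all genes) and a range of -0.29 for Pttg1 to 0.18 for Aurka. By limma 0 of 54 genes passed at an adjusted p of 0.05 (0.0385% of all genes), and 0 had an unadjusted p under 0.05 (6.3% of all genes, 3.65% as lower and 2.65% as higher in males). The extremes were both males, since Hmga2 KO replicate 1 was the highest Hmga2 KO sample for 31 genes and Hmga2 KO replicate 3 the lowest for 35. Neither count was made over all genes.

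**Figure D4:**
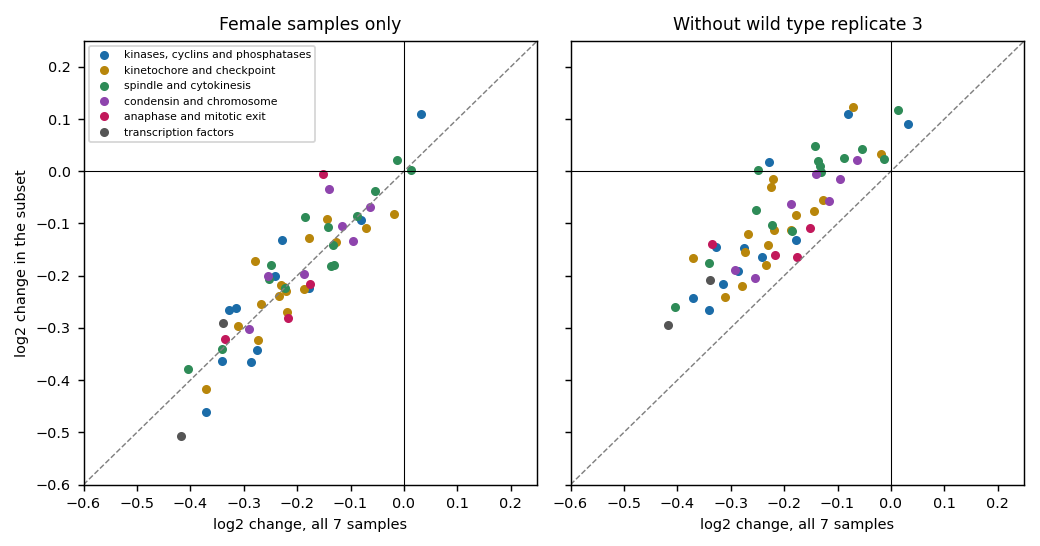
Log2 change of each mitotic gene (Hmga2 KO minus wild type) over all 7 samples (horizontal axis) against its change in female samples only (left) and without wild type replicate 3 (right), by role (colour), with equality as a dashed line. Female samples scatter about the line with a median of -0.20, whereas without wild type replicate 3 the points lie above it, with a median of -0.11.

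Other genes of G2 and mitosis, listed by function but with earlier results of these data known, were also mostly below 0. Of 98 measured among 100 listed, 85 had a change below 0 (67.6% of all genes), with a median of -0.14. By limma 0 passed, 18 had an unadjusted p under 0.05 as lower (18.4%, against 10.3% of all genes) and 0 as higher, and in 14 the Hmga2 KO samples lay below every wild type sample (14.3%, against 9.29%). The smallest p belonged to Vrk1, a kinase of chromatin proteins in mitosis, which had 1151, 1269.6, 1111 and 1071 in Hmga2 KO and 1567, 1509 and 1436 in wild type (change -0.39, adjusted p = 0.245). Here all 3 wild type samples were close to each other and above Hmga2 KO. Cenpm, of the inner kinetochore, had a change of -0.36 and Mad1l1, the checkpoint partner of Mad2l1, one of -0.71, with adjusted p of 0.245 and 0.246 by limma. Ube2s, the chain-extending enzyme of the anaphase-promoting complex, had -0.38, Lin54, the MuvB subunit that binds the CHR, -0.34, and the spindle gene Dlgap5 -0.36. The subsets had medians of -0.18 for the centromere and kinetochore (31 genes), -0.19 for Cdk1 regulators and kinases (12 genes), -0.14 for the anaphase-promoting complex (15 genes), -0.14 for cohesin and condensin II (12 genes), -0.13 for spindle and cytokinesis (19 genes) and -0.06 for DREAM and MuvB (9 genes).

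The genes of DNA replication, which act in the preceding S phase, had a median change of -0.29 over 42 genes measured among 44 listed, with 41 below 0 (67.6% of all genes), 17 lower at an unadjusted p under 0.05 (40.5%, against 10.3% of all genes) and 0 past the test by limma. Their mean level ran -0.12 ± 0.11 in Hmga2 KO (SD, n = 4) and 0.16 ± 0.19 in wild type (SD, n = 3) relative to the mean of all samples, whereas the mitotic genes had -0.09 ± 0.08 in Hmga2 KO and 0.12 ± 0.22 in wild type. Wild type replicate 3 was the highest of the 7 samples for 36 of these 42 genes too (29.5% of all genes).

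Markers of differentiated muscle had lower means in Hmga2 KO as well, but with other samples at the extremes. All 10 had a change below 0 (67.6% of all genes), with a median of -0.62 (-0.29 in females alone). By limma 6 were lower at an unadjusted p under 0.05 (60.0%, against 10.3% of all genes) and 0 passed the test. These markers also differed by sex within Hmga2 KO. Male minus female, their median was -0.74, with 9 of 10 below 0 (60.6% of all genes). Of the 10, 8 had an unadjusted p under 0.05 by limma (6.3% of all genes). Their mean level was -0.94, 0.25, -0.35 and -0.15 in Hmga2 KO replicates 1 to 4, against 0.13, 0.67 and 0.39 in wild type. Their summed intensity was 32517 to 67068 in Hmga2 KO and 59489 to 81733 in wild type. Wild type replicate 2, the lowest wild type sample for mitotic genes, was the highest of the 7 samples for 10 of 10 of these markers. Hmga2 KO replicate 1, the highest Hmga2 KO sample for most mitotic genes, was the lowest of all for 9 of 10. Neither marker count was made over all genes. Wild type replicate 2 also had the highest ratio of 3′ to 5′ Actb control probe sets, at 1.94 against 1.61 to 1.74 in the other 6 samples. The part of these differences in the mitotic result was not tested.

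**Figure D5:**
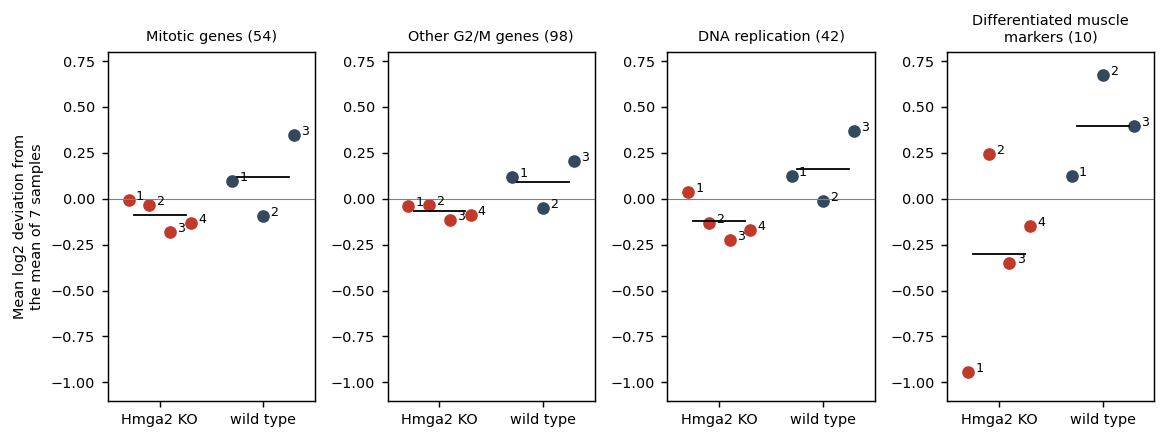
Mean log2 deviation from the mean of the 7 samples (vertical axis) for the 54 mitotic genes, 98 other G2/M genes, 42 DNA replication genes and 10 differentiated muscle markers, in Hmga2 KO (red) and wild type (dark); points carry the replicate number and lines give group means. Wild type replicate 3 is highest in the first 3 panels, and wild type replicate 2 in the muscle panel.

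Markers of cells other than myoblasts gave no common pattern. The summed intensity of 7 fibroblast and fibro-adipogenic markers was 8791 to 11294 in Hmga2 KO and 9169.9 to 9996 in wild type. Col3a1 (6483 to 9329.5 over all samples) made up most of it, while Col1a1 ran from 69.0 to 2891 and Pdgfra from 133 to 620. At an unadjusted p under 0.05, 1 marker was higher (Dcn, change 0.32, where 2.99% of all genes were higher). Lum and Dpt were at or below 61.0 in every sample. For 6 leukocyte markers the sum was 737 to 1199 in Hmga2 KO and 895 to 979.8 in wild type, with Laptm5 alone at 287 to 723 over all samples. For 2 Schwann and neural markers the sum was 126 to 147 in Hmga2 KO and 133 to 140.0 in wild type. The 5 endothelial markers summed to 363 to 371 in Hmga2 KO and 396 to 404 in wild type, ranges that did not overlap, with Tek never above the range of Y-linked genes in female samples and no marker at an unadjusted p under 0.05. The 5 smooth muscle and pericyte markers summed to 17293 to 25341 in Hmga2 KO and 15239 to 22878 in wild type. Most of this was Acta2 (11058 to 15908 over all samples) and Rgs5 (949 to 11001). Of the 5, 1 was higher at an unadjusted p under 0.05 (Rgs5, change 1.72, where 2.99% of all genes were higher). Male minus female Hmga2 KO, the median of these 5 was 0.34, with 2 at an unadjusted p under 0.05 (6.3% of all genes). By limma 0 markers of these cell types passed, and their part in the mitotic result was not tested.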

How the data were processed

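The deposited table holds linear intensities of 45101 probe sets in every sample, and its values show that the authors brought each array to a median of 150. How they were summarized and background-corrected is not given in the sources. Lowest intensities of 33.2 to 36.7 act as a floor. Probe sets were named through the platform table: 34945 had 1 gene, 932 several, 9160 none, and 64 were controls. For 34741 the gene was found in RefSeq (GRCm38.p6), which changed 0 symbols. Values were transformed to log2(intensity + 1), and for each of 18193 genes the brightest probe set was kept. Hmga2 KO (4) and wild type (3) were compared in R 4.3.3 with limma 3.58.1 (lmFit, then eBayes), Benjamini-Hochberg adjusted over all genes at 0.05, with no covariate. The fit with sex, which is the same model as 1 group per genotype and sex, gave the female comparison. The scripts were tested on simulated data. Every measured gene of the set is named, and of other G2/M genes the 6 with the smallest p. The genes and lists were chosen with earlier results of these data known. Sequences are RefSeq's. The labels give Hmga2 KO replicate 2 different animal numbers in different fields. The deviations of same-numbered samples from their group means correlated at 0.31, 0.37 and -0.18. The replicate numbers were not taken as pairs, and these values do not settle whether they are.

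The alternatives were sex in the model, the replicate number as a block, each sample left out, quantile normalization, centring on the median gene, a pseudocount of 16, a gene's mean or most variable probe set in place of its brightest, a filter on the dimmest 40% of genes, a trended and robust prior and array weights. A fit of the 5 female samples alone, and one without probe sets whose identifier ends in _s_at or _x_at, were chosen after seeing the data.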

Additional observations from a re-analysis of the deposited data

Results flagged for a closer look

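In the 4 Hmga2 KO samples, 2 of 55 genes examined (the 54 mitotic genes and Hmga2) had 1 sample far from the others, where chance gives about 1 in 20. In both it was Hmga2 KO replicate 1, a male. Plk4, the kinase of centriole duplication, had 4067 there and between 3033 and 3161 in the remaining Hmga2 KO samples, a gap of 0.859 of the group's log2 range. Cenpe, a kinetochore motor, had 1109.8 there and between 903 and 919 in the remaining ones, a gap of 0.914 of the range. The same sample was the highest Hmga2 KO sample for 31 of the 54 mitotic genes, a count not made over all genes.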

How the results depend on the processing

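No mitotic gene had an adjusted p under 0.05 under any of the 19 alternatives (lowest 0.186), and the median change of the set stayed below 0, at -0.32 to -0.11 with each sample left out. The count at an unadjusted p under 0.05 did not hold. Against 12 mitotic and 18 other G2/M genes as reported, it was 2 and 7 with quantile normalization (5.08% of all genes lower at that p), 0 and 7 with centring (3.44%), 2 and 10 with sex in the model (5.13%), 3 and 8 in the 5 female samples alone (4.64%), and 22 and 30 with array weights (11.8%). Of these, 1 other G2/M gene was higher with centring (7.31% of all genes) and 1 with array weights (3.34% of all genes), and the rest were lower. With each sample left out the counts ran over 0 to 30 and 7 to 33. The 6 genes without overlap, all lower (9.29% of all genes), were 2 with quantile normalization (5.29%), 0 with centring (3.70%) and 15 in the female samples (16.1%), where fewer samples make overlap rarer. With each sample left out they ran over 6 to 34, with 6 without wild type replicate 3 (11.8% of all genes) and 34 without wild type replicate 2 (17.2%). Over all genes, 5 passed the adjusted test (3 lower and 2 higher), 8 with centring (3 lower and 5 higher) and 2 to 17 with each sample left out. Replicate numbers are shared by both groups and were not taken as pairs. With the replicate number as a block, which drops Hmga2 KO replicate 4 from the contrast, 99 genes passed, with 3 mitotic and 10 other G2/M genes at an unadjusted p under 0.05 (8.67% of all genes were lower at that p), and Cdc25b was -0.029, Cenpe 0.0011 and Tpx2 -0.0063. Hmga2 KO replicates 1 and 2 correlated best with the wild type sample of their own number (0.31 and 0.37). Hmga2 KO replicate 3 correlated best with wild type replicate 2 (0.11), not its own number (-0.18).

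The changes of 20 genes had the other sign under some setting, including genes with changes as reported of -0.26 (Ncapd2), -0.25 (Kif20a) and -0.23 (Ccnb2), and none was called. With quantile normalization Cdc25c was 0.048, Cenpe 0.11, Nuf2 0.011 and Aspm 0.081. With centring Cdc25c was 0.030, Cenpe 0.092, Nuf2 0.040, Prc1 0.024, Ect2 0.058, Aspm 0.10, Smc2 0.047 and Smc4 0.015. The mean of a gene's probe sets gave 0.095 for Bub3, 0.10 for Cenpa, -0.052 for Tpx2, 0.039 for Aspm and 0.0082 for Ncapd2. The most variable probe set gave 0.27 for Bub3, 0.21 for Ttk, 0.28 for Cenpa, 0.043 for Aspm, 0.27 for Ncapd2 and 0.048 for Pttg1. Aspm was 0.021 with sex in the model and in females alone, which give the same estimates, and Tpx2 was -0.052 with array weights. With each sample left out, changes ran over -0.35 to 0.11 for Cdc25c, -0.12 to 0.034 for Cenpe, -0.21 to 0.043 for Ect2, -0.066 to 0.023 for Aspm, -0.057 to 0.091 for Cdc25b, -0.21 to 0.13 for Tpx2, -0.44 to 0.018 for Ccnb2, -0.29 to 0.12 for Nuf2, -0.39 to 0.0031 for Kif20a, -0.28 to 0.021 for Kif22, -0.26 to 0.025 for Prc1, -0.24 to 0.0099 for Racgap1, -0.31 to 0.049 for Hmmr and -0.21 to 0.022 for Smc2. The median change of the set between male and female Hmga2 KO ran over -0.11 to 0.10. The cause of these differences was not tested. Of 54 genes, 34 kept their sign throughout.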
